A study of Arabidopsis thaliana with 6 samples.

Results

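The genes described here are the UDP-glycosyltransferase (UGT) and glutathione transferase (GST) genes of Arabidopsis in seedlings of the *gis5* mutant and of the wild type (WT). A gene was a member when a probe set carried a single gene symbol beginning with UGT and a digit, or with GSTU, GSTF, GSTZ, GSTT or GSTL, with or without the prefix AT. Where a gene had several probe sets the one with the highest mean signal was to be used, but each member had 1. This gave 70 genes, 48 UGT and 22 GST, of the 22746 probe sets tested. Such a symbol is carried by 106 genes of the RefSeq annotation, and the other 36 were not analysed here. The array annotation named 61 of the members (47 UGT, 14 GST). The remaining 9, *UGT74F2* and 8 GST genes (*GSTF12*, *GSTF14*, *GSTU4*, *GSTU8*, *GSTU9*, *GSTU10*, *GSTU14* and *GSTU24*), had a symbol only in the study's own gene list. That list was made on these same arrays and was read here only as far as 1996 entries in order of the size of the difference, so the differences of these 9 genes are not independent of how they were named. No member was of zeta or theta class.

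*gis5* carries a point mutation in *POLD1*, the gene of the catalytic subunit of DNA polymerase delta. It came from an EMS mutagenesis screen in the *gi-2* background and had been backcrossed to WT before use, so other EMS changes may remain. The comparison set 3 *gis5* arrays against 3 WT arrays, each hybridised with RNA of separately grown whole seedlings, leaves and roots together, 10 d old and kept under continuous light on MS medium. All plates were kept at 23°C or 24°C, the sources differing in this. The allele is thermosensitive, and no other temperature was measured. In RNA of whole seedlings, fewer cells of a type and less RNA per cell cannot be told apart.

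UGTs move a sugar from a UDP-sugar to a small acceptor, such as a plant hormone, a phenylpropanoid or a foreign compound, and so change its solubility, activity and storage. GSTs join the tripeptide glutathione to electrophilic compounds or carry such compounds without conjugating them, and the plant-specific tau (GSTU) and phi (GSTF) classes are the largest in Arabidopsis. Many members of both families are known for their induction by xenobiotics, oxylipins and salicylic acid, and several have strong expression in roots.

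The deposited signals had medians of 185 to 191 in *gis5* arrays and 174 to 182 in WT arrays, and the log2 signals of any pair of arrays correlated at 0.958 to 0.974. The actin 3′/5′ ratio, an indicator of RNA integrity, ranged over 4.39 to 4.99 for *gis5* and over 3.30 to 6.42 for WT. Over all probe sets the median log2 ratio of *gis5* to WT was 0.03.

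GST genes passed an unadjusted p of 0.05 only as higher in *gis5*, while UGT genes passed it in both directions. Among the 14 GST genes named by the array annotation, 8 had a positive and 6 a negative log2 ratio, while 54.1% of the probe sets named in that way were positive, so the split of signs was near the background. With the 8 genes named through the study's list, which were all positive, 16 of 22 were positive and the median was 0.51, but those 8 had been singled out by their difference. Of the 48 UGT genes, 23 had a positive and 25 a negative ratio, with a median of −0.00. No member passed an adjusted p of 0.05 over all probe sets, the lowest adjusted p being 0.21, and 0.0044% of all probe sets (1 of 22746) passed it. By that test no single member is therefore shown to differ. The counts that follow use weaker limits and are descriptions, with no test of either family as a whole.

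At an unadjusted p under 0.05 in limma, 10 GST genes (45.5%) were higher in *gis5*, 0 were lower and 12 did not pass, while 5.99% of all probe sets passed as higher and 3.06% as lower. The 10 genes were *GSTF4*, *GSTF14*, *GSTU8*, *GSTU9*, *GSTU10*, *GSTU14*, *GSTU22*, *GSTU25*, *GSTU26* and *GSTU28*. Of the UGT genes, 5 were higher (10.4%: *UGT71C1*, *UGT72E2*, *UGT72E3*, *UGT73C7* and *UGT84A1*), 3 were lower (6.25%: *UGT73B1*, *UGT74F2* and *UGT76C1*) and 40 did not pass. The GST count depended on the arrays: it was 4 without *gis5* replicate 3 and 6 without WT replicate 3. The 5 higher UGT genes became 3 without *gis5* replicate 1 or without *gis5* replicate 3 and 2 without WT replicate 1, and the 3 lower ones became 1 without *gis5* replicate 3. The share of all probe sets that passed without an array is not given here. These changes in count can therefore not be read as particular to either family.

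How a GST gene had been named mattered to these counts. The 14 GST genes named by the array annotation had a median of 0.48, which was 0.24 without WT replicate 3 and −0.00 over the 9 of them above the median signal, and 5 (35.7%: *GSTF4*, *GSTU22*, *GSTU25*, *GSTU26* and *GSTU28*) were higher at an unadjusted p under 0.05, beside 5.77% of the 13513 probe sets named in that way. Of those probe sets 2.97% passed as lower and of these GST genes 0 did. The 5 became 2 without *gis5* replicate 2, without *gis5* replicate 3 or without WT replicate 3, *GSTF4* and *GSTU25* in each case. The 8 GST genes named through the study's list had a median of 0.69, and 5 of them passed as higher (2 without *gis5* replicate 3 and 3 without WT replicate 1), but among the 851 probe sets named through that list 30.8% passed as higher and 14.0% as lower, with a median of 0.35.

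**Figure D1:**
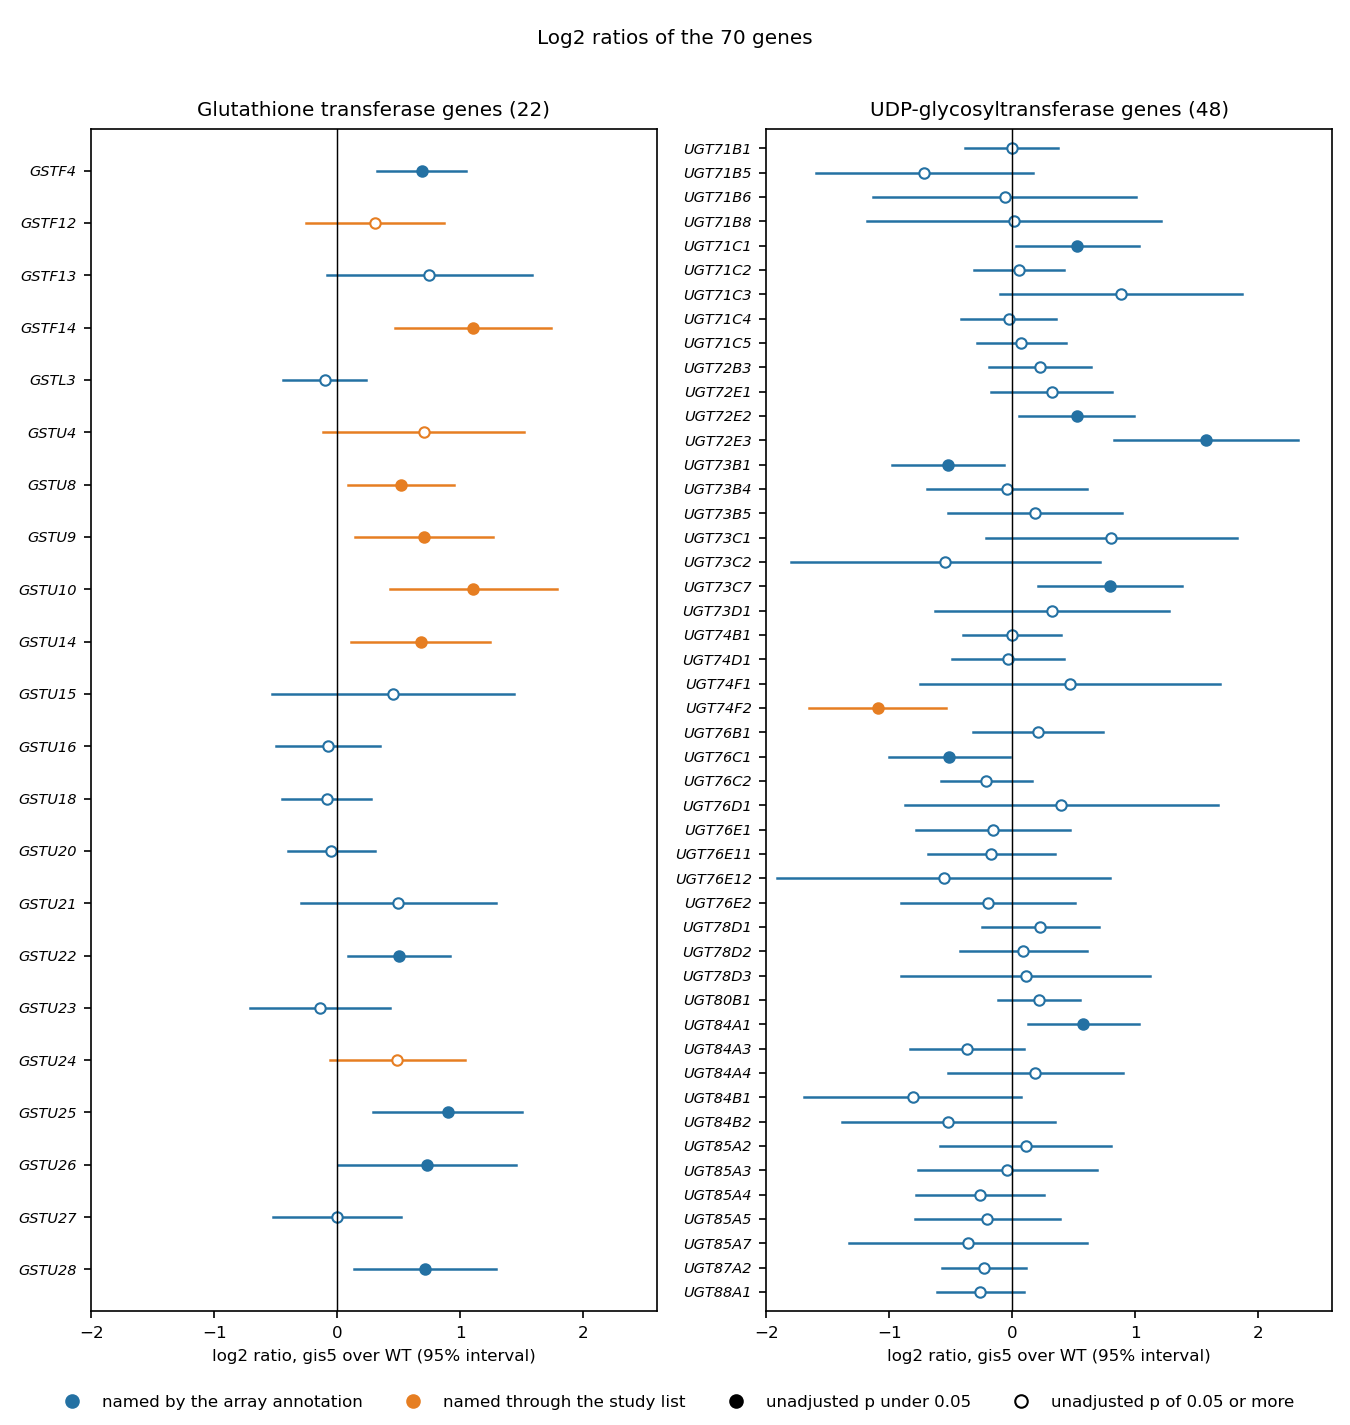
Log2 ratio of *gis5* to WT for the 22 GST and 48 UGT genes, with bars for the 95% confidence interval of limma colour for the source of the name and filled points for an unadjusted p under 0.05. Of the GST genes named by the array annotation 8 of 14 lie to the right of 0, as do all 8 named through the study's list, and the UGT genes lie on both sides (23 positive, 25 negative), with *UGT72E3* at 1.57 and *UGT74F2* at −1.09 at the ends.

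The phi class held 4 measured genes, all with a positive ratio and a median of 0.72. *GSTF12* and *GSTF14* were named through the study's list, where 63.3% of probe sets were positive. Of the probe sets named by the array annotation, as *GSTF4* and *GSTF13* were, 54.1% were positive. *GSTF4* (AT1G02950) had signals of 219, 235 and 238 in *gis5*, against 156, 131 and 125 in WT. The *gis5* arrays lay close together and all above the WT arrays, and the means were 230.5 ± 10.4 and 137 ± 16.7 (SD, n = 3 each). The log2 ratio was 0.69 with a standard error (SE) of 0.15 and a limma adjusted p of 0.26. *GSTF14* (AT1G49860) gave 288, 144 and 219 in *gis5* and 109, 76.7 and 83.5 in WT, a log2 ratio of 1.11 (SE 0.27, adjusted p = 0.29). Its groups did not overlap, although the *gis5* arrays were spread widely.

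*GSTF12* (AT5G17220), known as TT19, is needed for anthocyanins to reach the vacuole. It had signals of 264, 194 and 254 in *gis5*, against 134, 219 and 221 in WT. The groups overlapped, since *gis5* replicate 2 was below 2 of the WT arrays, and the log2 ratio of 0.31 had a 95% interval of −0.26 to 0.87. *GSTF13* (AT3G62760) also overlapped, with 54.3, 118 and 95.6 in *gis5* and 76.7, 29.2 and 36.6 in WT (log2 ratio 0.75, SE 0.35).

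The tau class was the largest, with 17 genes, of which 12 had a positive ratio and 8 passed the unadjusted p as higher (5.99% of all probe sets did), with a median of 0.50. Of these 8, 4 were named by the array annotation and 4 (*GSTU8*, *GSTU9*, *GSTU10* and *GSTU14*) through the study's list, where 30.8% passed. *GSTU25* (AT1G17180) and its neighbour *GSTU24* encode enzymes known to conjugate the explosive TNT in Arabidopsis. *GSTU25* had signals of 807, 712 and 1304 in *gis5* and 555, 454 and 438 in WT. The groups did not overlap, and *gis5* replicate 3 stood well above the other *gis5* arrays. The means were 941 ± 318 and 482 ± 63.2 (SD, n = 3 each), with a log2 ratio of 0.90 (SE 0.25, 95% interval 0.29 to 1.51, adjusted p = 0.39). With a variance that follows the signal and is robust to outlying probe sets, its adjusted p was 0.0455. In that fit 0.492% of all probe sets passed as higher and 0.145% as lower. Over all alternative settings its adjusted p ran from 0.0455 to 0.62.

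*GSTU24* (AT1G17170) had signals of 796, 587 and 951 in *gis5*, against 629.5, 554 and 449 in WT. Here WT replicate 1 lay above *gis5* replicate 2, so the groups overlapped, and the log2 ratio was 0.49 with an interval of −0.06 to 1.04. *GSTU26* (AT1G17190), the next gene on the chromosome, gave 667, 572 and 831 in *gis5* and 635, 306 and 338 in WT (log2 ratio 0.73, SE 0.30, adjusted p = 0.55). Its groups overlapped through WT replicate 1, although it passed the unadjusted p.

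*GSTU10* (AT1G74590) had signals of 81.7, 133 and 169 in *gis5* and 42.5, 66.9 and 39.7 in WT. The groups did not overlap, and at a log2 ratio of 1.11 (SE 0.28, adjusted p = 0.33) it was, with *GSTF14*, 1 of 2 GST genes to pass the thresholds of the study's methods, which ask for an absolute log2 ratio of 1 or more together with an unadjusted p under 0.05. *UGT72E3* passed them as higher and *UGT74F2* as lower, and over all probe sets 1.38% passed as higher and 0.541% as lower.

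*GSTU8* (AT3G09270) gave 1594, 1918 and 2319 in *gis5* and 1312, 1380.2 and 1308 in WT. Its WT arrays were tight (1334 ± 40.3, SD) and the *gis5* arrays spread upwards from them (1944 ± 363, SD), with a log2 ratio of 0.52 (SE 0.18, adjusted p = 0.47). *GSTU22* (AT1G78340) had the same arrangement, with 698, 861 and 971 in *gis5* and 621, 576 and 558 in WT (log2 ratio 0.50, SE 0.17, adjusted p = 0.47). *GSTU9* (AT5G62480) had 172, 181 and 249 in *gis5* and 84.6, 141 and 126 in WT, again without overlap, and a log2 ratio of 0.71 (SE 0.23, adjusted p = 0.46).

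*GSTU28* (AT1G53680; 182, 272 and 254 in *gis5*, 157, 159.6 and 98.9 in WT) and *GSTU14* (AT1G27140; 201, 176 and 231 in *gis5*, 146, 82.6 and 140.1 in WT) did not overlap either. Their log2 ratios were 0.71 and 0.68. The tau genes that did not pass included *GSTU4* (AT2G29460), whose signals of 90.8, 36.1 and 75.9 in *gis5* and 32.5, 51.4 and 20.2 in WT overlapped and gave a ratio of 0.70 with an SE of 0.34.

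Not all GST genes were higher. *GSTU20* (AT1G78370), the enzyme that partners the jasmonate-conjugating JAR1 (FIN219) and is also called FIP1, had signals of 3794, 3765 and 4226 in *gis5* and 3868, 4407 and 3899.9 in WT. Its groups overlapped, and the interval of its log2 ratio of −0.05 was −0.40 to 0.31. *GSTL3* (AT5G02790), of the lambda class that has a cysteine at its active site, gave 3803, 3366 and 3648 in *gis5* and 3767, 4058 and 3776 in WT, with a ratio of −0.10 and an interval of −0.44 to 0.24. *GSTU27* (AT3G43800) had 1281, 1288 and 1461 in *gis5* and 1640.2, 1471 and 1001 in WT, a ratio of −0.00 and an interval of −0.52 to 0.52, set by the wide spread of its WT arrays. *GSTU23* (AT1G78320), *GSTU18* and *GSTU16* had ratios of −0.14, −0.08 and −0.07.

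**Figure D2:**
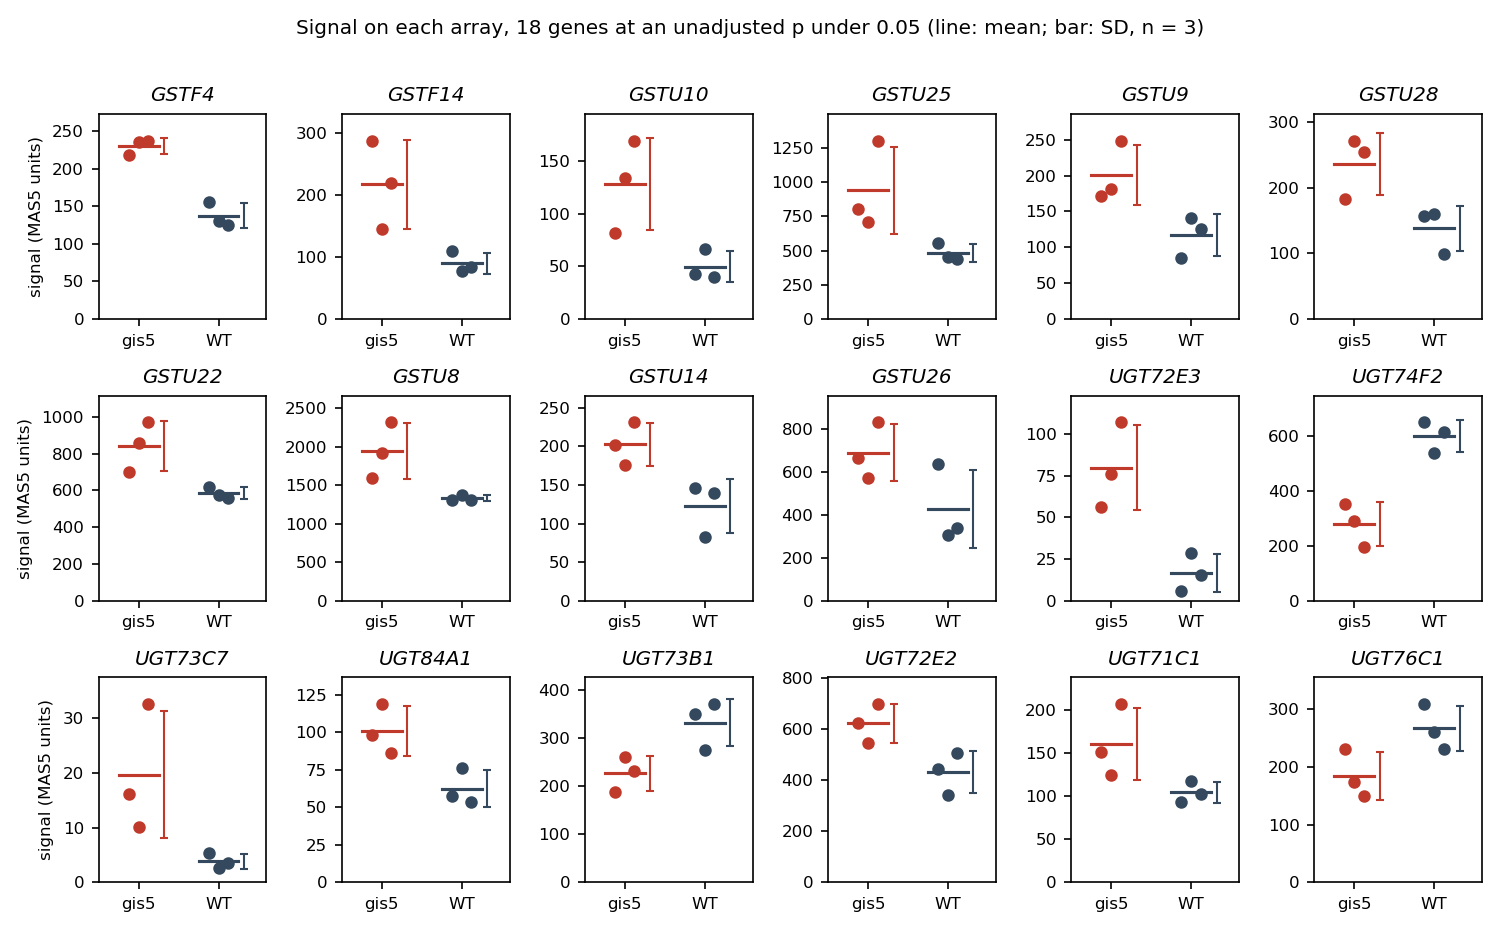
Signal in MAS5 units (linear axis from 0) on each of the 6 arrays for the 18 members at an unadjusted p under 0.05, with *gis5* left of WT, points for arrays, lines for means and bars for the SD (n = 3). *GSTF4*, *GSTU25* and *UGT72E3* show *gis5* arrays that all lie above the WT arrays, and *UGT74F2* shows *gis5* signals of 195 to 352 that all lie below WT signals of 536 to 649.

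Counted by whether the 3 *gis5* arrays all lay on the same side of the 3 WT arrays, 9 GST genes (40.9%) were apart and higher and 0 were apart and lower, while 9.13% of all probe sets were apart and higher and 6.79% apart and lower. By source of the name, 4 of the 14 GST genes from the array annotation were apart and higher (28.6%, beside 8.53% of the probe sets so named, with 6.2% apart and lower), and 5 of the 8 from the study's list (beside 38.2% of its probe sets, with 18.4% apart and lower). Of the UGT genes 7 were apart and higher and 5 apart and lower. With 3 arrays against 3 an exact two-sided permutation test cannot go below p = 0.1, so such a gene has that p and no smaller one.

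Of the UGT genes, 6 act on hydroxycinnamates or the alcohols made from them, 5 of them with a positive ratio and 3 higher at the unadjusted p, where 5.99% of all probe sets passed as higher and 3.06% as lower, and their median was 0.42. UGT72E1, UGT72E2 and UGT72E3 glucosylate monolignols and related aldehydes, and UGT84A1, UGT84A3 and UGT84A4 make glucose esters of hydroxycinnamic acids. *UGT72E3* (AT5G26310) had signals of 56.4, 76.0 and 107 in *gis5* and 5.95, 28.8 and 15.5 in WT. The lowest *gis5* array was above the highest WT array, and the WT signals were low: the means were 79.8 ± 25.4 and 16.7 ± 11.5 (SD, n = 3 each). The log2 ratio of 1.57 (SE 0.32, interval 0.82 to 2.33) had an adjusted p of 0.21, and because of the low WT signals it was 0.83 to 2.37 over the alternative settings.

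*UGT72E2* (AT5G66690) was also without overlap, with 624, 547 and 699.6 in *gis5* and 445, 344 and 506 in WT (log2 ratio 0.52, SE 0.20, adjusted p = 0.50). For *UGT72E1* (AT3G50740), with 702, 768 and 769.8 in *gis5* and 454, 734 and 630.0 in WT, the groups overlapped and the ratio was 0.32 (SE 0.21). *UGT84A1* (AT4G15480) had 98.1, 119 and 86.1 in *gis5*, against 57.5, 76.4 and 53.4 in WT. Its groups did not overlap, and the log2 ratio was 0.58 (SE 0.19, adjusted p = 0.45).

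The neighbour of *UGT84A1*, *UGT84A3* (AT4G15490), lay the other way, with 326, 392.5 and 367 in *gis5* and 370.2, 539 and 521 in WT. The groups overlapped slightly and the ratio was −0.37 (SE 0.19, adjusted p = 0.63). *UGT84A4* (AT4G15500) overlapped widely, with a ratio of 0.19 (SE 0.30).

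For the acceptors from which these glucosides are made, 9 genes of phenylpropanoid and anthocyanin synthesis were matched by name from 36 listed symbols. Of these 9 genes 6 were named through the study's list. The median ratio of the 9 was 0.42, with 5 positive and 4 negative. The positive ones were all named through the study's list, whose probe sets had a median of 0.35. Those named by the array annotation, *DFR* (SE 0.17), *AT5MAT* (−0.35, SE 0.44) and *BAN* (−0.42, SE 0.54), were negative, but each ratio was smaller than its SE. *BAN* was very dim, with 6.10, 12.6 and 1.96 in *gis5* and 57.5, 2.18 and 4.46 in WT. The direction of these genes is therefore not shown. 1 passed the unadjusted p as higher, *F3H* (AT3G51240), the flavanone hydroxylase, with 3090, 2423 and 3380 in *gis5*, 1848, 2326 and 2270 in WT, and a ratio of 0.46 (adjusted p = 0.55). None passed as lower. Over all probe sets 5.99% passed as higher and 3.06% as lower, and among those named through the study's list 30.8% and 14.0%. *PAL1*, of the entry enzyme of the pathway, had a ratio of 0.44, *4CL2* 0.69, *SNG1*, which makes sinapoyl malate, −0.43, and *DFR* −0.10.

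The 4 UGT genes that act on flavonoids were all positive with small ratios. *UGT71C1* (AT2G29750), whose enzyme glucosylates flavonoids in vitro, had 151, 124 and 207 in *gis5* and 93.6, 117 and 103 in WT, without overlap (log2 ratio 0.53, SE 0.21, adjusted p = 0.53). *UGT78D1* (AT1G30530), the flavonol 3-O-rhamnosyltransferase, gave 891, 693 and 961 in *gis5* and 607, 837 and 719 in WT. *UGT78D2* (AT5G17050), the flavonoid 3-O-glucosyltransferase, gave 1189.9, 928 and 1089.6 in *gis5* and 799.6, 967 and 1288 in WT. Both overlapped, with ratios of 0.23 (interval −0.25 to 0.70) and 0.09 (interval −0.43 to 0.61).

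Of the 4 genes whose enzymes act on salicylic acid or related hydroxybenzoic acids, 3 were positive without passing and *UGT74F2* was lower. *UGT74F2* (AT2G43820), which makes the glucose ester of salicylic acid, had signals of 352, 289 and 195 in *gis5* and 649, 536 and 614 in WT. All *gis5* arrays lay far below all WT arrays, with means of 279 ± 78.9 and 599.7 ± 57.6 (SD, n = 3 each). The log2 ratio was −1.09 (SE 0.23, interval −1.65 to −0.54, adjusted p = 0.24), and it was −1.27 to −0.87 with 1 array left out. Its adjusted p was 0.0185 in a fit restricted to the upper part of the signal range (above the median), where 0.721% of them passed as higher and 0.237% as lower, and 0.0122 with the trended and robust variance, where 0.492% of all probe sets passed as higher and 0.145% as lower. It was named through the study's list.

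*UGT74F1* (AT2G43840), the tandem neighbour whose enzyme makes the salicylic acid glucoside, was dim and variable, with 97.95, 11.03 and 39.4 in *gis5* and 30.1, 13.5 and 31.4 in WT (ratio 0.47, interval −0.75 to 1.69). *UGT76B1* (AT3G11340), which acts on isoleucic acid, salicylic acid and N-hydroxypipecolic acid, had 197, 212 and 244 in *gis5* and 161, 155 and 256 in WT. WT replicate 3 was the highest of the 6, and the ratio was 0.21 (interval −0.32 to 0.74). *UGT76D1*, for dihydroxybenzoic acids, had a ratio of 0.40 and did not pass.

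Both UGT genes for cytokinin N-glucosylation had negative ratios. *UGT76C1* (AT5G05870) had 230.4, 173 and 149 in *gis5* and 309, 261 and 232 in WT. The highest *gis5* array was just under the lowest WT array, and the log2 ratio was −0.51 (SE 0.21, interval −1.003 to −0.02, adjusted p = 0.54). *UGT76C2* (AT5G05860) overlapped with 192, 244 and 219.7 in *gis5* and 240.5, 256 and 269 in WT (ratio −0.21, SE 0.15).

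Of the genes for other hormones none passed. *UGT74D1* and *UGT84B1*, which act on auxins, had ratios of −0.04 and −0.81, the second from a dim probe set with 6.46, 2.91 and 2.15 in *gis5* and 37.0, 3.23 and 24.8 in WT. The 3 genes for abscisic acid, *UGT71B6*, *UGT71B8* and *UGT71C5*, ranged from −0.06 to 0.07. *UGT74B1* (AT1G24100), which glucosylates thiohydroximates in glucosinolate synthesis, had 975, 1242 and 1264 in *gis5* and 1095, 1244 and 1125 in WT, with a ratio of −0.00 (interval −0.40 to 0.40).

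*UGT87A2* (AT2G30140), which influences flowering time through the repressor *FLC*, had 685, 597 and 595 in *gis5*, against 739, 728 and 741 in WT. The WT arrays were very close together and all above the *gis5* arrays, yet the ratio was only −0.23 (interval −0.57 to 0.11, adjusted p = 0.68). *UGT88A1* (AT3G16520) was also apart and lower without passing, with 2796, 3074 and 2641 in *gis5* and 3215, 3653 and 3323 in WT (ratio −0.26). *UGT80B1* (AT1G43620), for sterols, was apart and higher with 333, 322 and 309 in *gis5* and 257, 278 and 287 in WT (ratio 0.22, adjusted p = 0.69).

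*UGT73B1* (AT4G34138) had 188, 261 and 231 in *gis5* and 349.8, 276 and 370.4 in WT. The groups did not overlap, and the ratio was −0.52 (SE 0.19, adjusted p = 0.49). *UGT73C7* (AT3G53160) was higher without overlap but at very low signals, 16.1, 10.2 and 32.5 in *gis5* and 5.34, 2.72 and 3.47 in WT, so that its ratio of 0.80 depended on the pseudocount and was 0.29 to 1.98 over those tried. *UGT71C3* (AT1G07260), whose enzyme acts on methyl salicylate, had 80.2, 94.0 and 76.2 in *gis5* and 11.1, 53.1 and 66.7 in WT. It was apart and higher but did not pass, and WT replicate 1 was far below the other WT arrays (ratio 0.89, SE 0.41).

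By subfamily, all 4 UGT72 genes were positive (2 higher, median 0.42) and all 3 UGT78 genes were positive with none past the unadjusted p. In UGT76, 2 of 8 were positive (1 lower, median −0.18), in UGT85, 1 of 5 (none past), and in UGT74, 1 of 4 (1 lower). UGT71 (5 of 9 positive, 1 higher), UGT73 (4 of 7, 1 higher and 1 lower) and UGT84 (2 of 5, 1 higher) were mixed. Beside shares of 5.99% higher and 3.06% lower over all probe sets, 1 call in a subfamily of this size is little more than the background.

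The ratios were read against probe sets of like signal, since dim probe sets spread more. Among members above the median mean signal of all probe sets (185.5), 5 of 12 GST genes were higher, with a median of 0.40 (4 of the 9 named by the array annotation), and of 21 UGT genes 1 was higher and 3 lower. At that signal 4.61% of probe sets passed as higher and 3.0% as lower, and 9.73% were apart and higher and 9.35% apart and lower. Below it 5 of 10 GST genes (median 0.70) and 4 of 27 UGT genes were higher and none of either family was lower, while 7.38% of the probe sets there passed as higher and 3.12% as lower. Of these 5 GST genes 1, *GSTF4*, was named by the array annotation. With probe sets divided into 20 bins by mean signal, 11 GST genes lay above the 95th percentile of their own bin and 0 below the 5th. They were 5 of the 14 named by the array annotation, of whose probe sets 4.7% lay above, and 6 of the 8 named through the study's list, of whose probe sets 30.1% lay above. For UGT genes the counts were 3 above (*UGT72E2*, *UGT72E3* and *UGT73C7*) and 6 below (*UGT73B1*, *UGT74F2*, *UGT76C1*, *UGT84A3*, *UGT84B1* and *UGT84B2*).

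**Figure D3:**
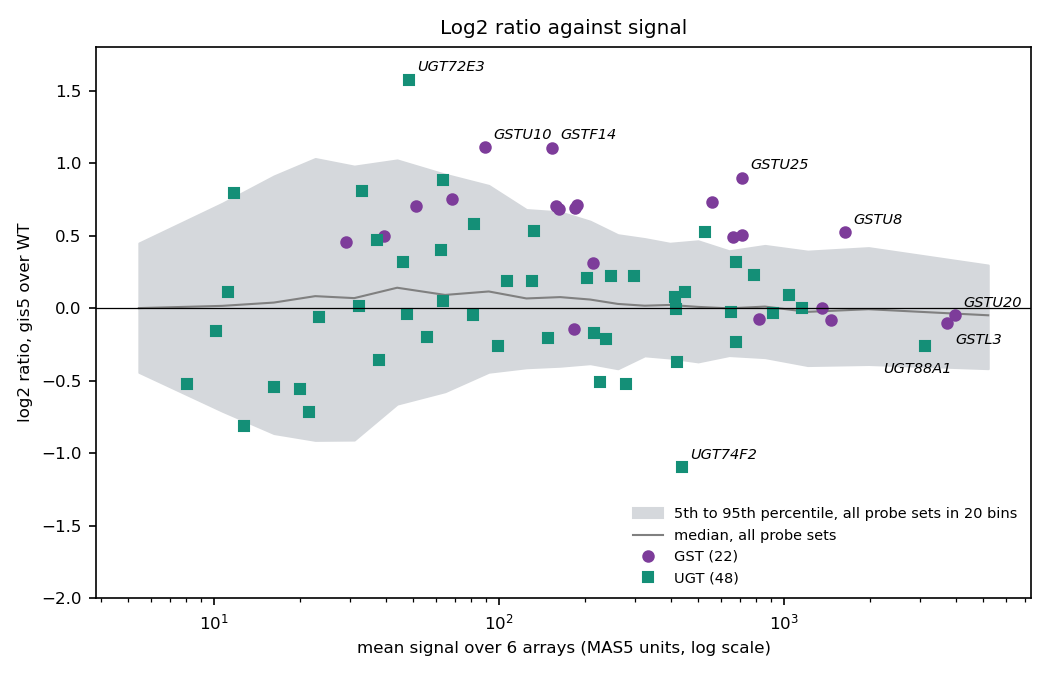
Log2 ratio of *gis5* to WT against mean signal over the 6 arrays (MAS5 units, log axis) for each member, with the range from the 5th to the 95th percentile of all probe sets in 20 bins of signal shaded. Of the 22 GST genes 11 lie above the shaded range (6 of them named through the study's list) and 0 below it, and of the 48 UGT genes 3 lie above and 6 below.

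Many members are neighbours on the chromosome: 33 of them form 13 groups with 20 adjacent pairs. The members of a pair had ratios of the same sign in 9 of the 20. *GSTU24*, *GSTU25* and *GSTU26* were all positive (0.49, 0.90 and 0.73), and over the 6 arrays their log2 signals had a correlation of 0.92 for *GSTU24* with *GSTU25* and of 0.87 for *GSTU25* with *GSTU26*. In the other tau group, *GSTU23*, *GSTU22*, *GSTU21* and *GSTU20*, the ratios were −0.14, 0.50, 0.50 and −0.05, and the correlations of successive neighbours −0.71, 0.55 and −0.66. Over the 20 pairs the correlations ran from −0.71 to 0.92 with a median of 0.05. Of these 4 genes only *GSTU22* passed the unadjusted p, and *GSTU21* (AT1G78360), dim at 48.5, 42.7 and 50.1 in *gis5* and 53.8, 11.3 and 30.8 in WT, did not. *UGT73D1*, the neighbour of *UGT73C7*, had a ratio of 0.32 with an SE of 0.40.

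In 4 pairs the difference between the neighbours within an array was apart between the genotypes (exact permutation p = 0.1, the smallest possible). These were *UGT74F2* with *UGT74F1* (ratio of the first minus that of the second −1.56), *UGT84A1* with *UGT84A3* (0.95), *UGT71C4* with *UGT71C3* (−0.91) and *GSTU24* with *GSTU25* (−0.41). Random labels put a pair apart with a probability of 0.1, so some of the 20 pairs would be apart without any difference. *UGT74F2* and *GSTU24* were named through the study's list. *UGT74F1* was dim, and for *UGT71C3* WT replicate 1 was far below the other WT arrays. Neighbours of these families have similar sequences, and whether a probe set also bound the transcript of a neighbour was not tested.

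**Figure D4:**
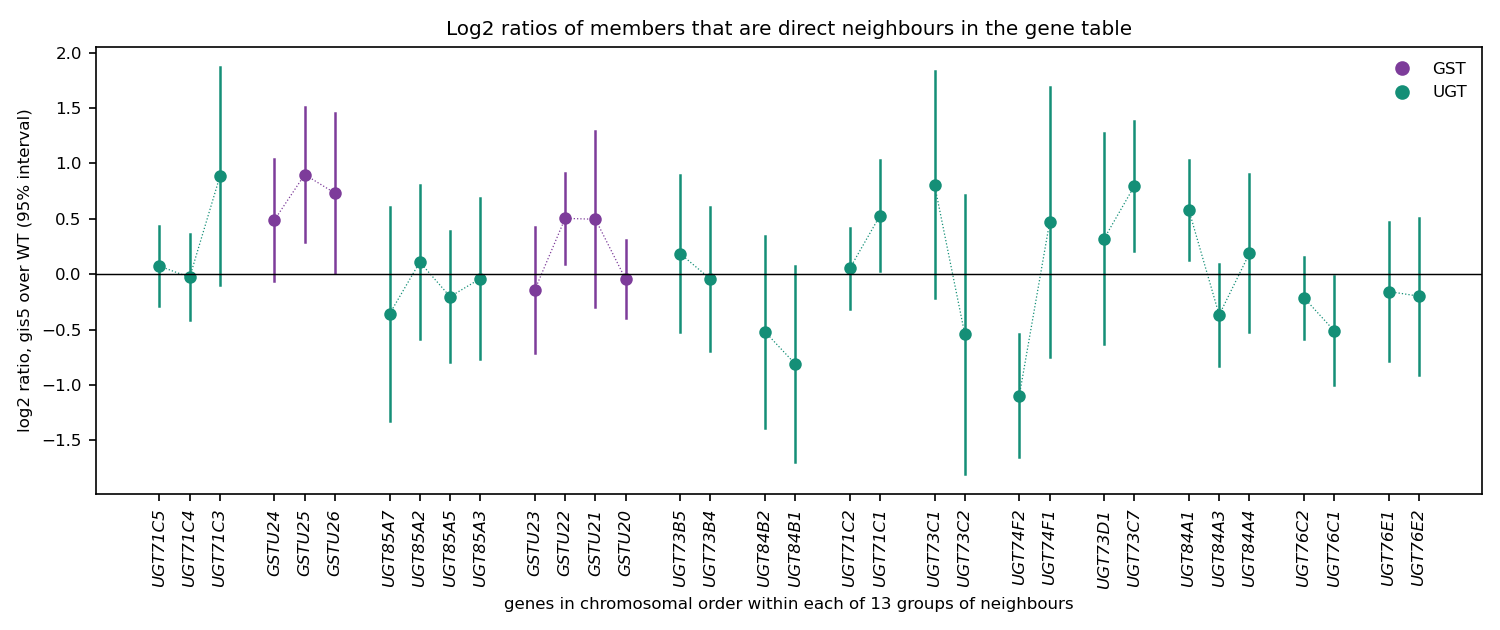
Log2 ratio of *gis5* to WT, with bars for the 95% interval, for members in chromosomal groups, in the order of the genes. *GSTU24*, *GSTU25* and *GSTU26* are all above 0 (0.49, 0.90 and 0.73), while *UGT74F2* (−1.09) and *UGT74F1* (0.47), and *UGT84A1* (0.58) and *UGT84A3* (−0.37), lie on opposite sides.

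From 38 listed symbols of other genes of glutathione metabolism only 2 genes were matched by name, the glutathione reductases *GR* (AT3G54660, ratio 0.13) and *GR1* (AT3G24170, ratio 0.08). Neither passed. The 7879 probe sets without a name and the 503 matching several genes were not searched, so other listed genes may be on the array. A gene not named by the array annotation could enter a list only through the study's list. From 24 listed symbols of other genes known to respond to xenobiotics and oxylipins 7 genes were matched by name, 3 of them through the study's list. The 7 genes had a median of −0.14, with 1 higher and 2 lower at the unadjusted p. Over all probe sets 5.99% passed as higher and 3.06% as lower. Both lower genes, *CYP81D11* and *TGA6*, were named through the study's list, where 14.0% of probe sets passed as lower. *CYP81D11* (AT3G28740), a cytochrome P450 induced together with several tau GSTs by such compounds, had 695, 1304 and 1173 in *gis5* and 1985, 1671 and 1625 in WT. It lay apart and lower, with *gis5* replicate 1 the lowest of the 6 arrays (ratio −0.77, adjusted p = 0.46). *TGA6* (AT3G12250), of a transcription factor that takes part in this response, was lower at −0.49 (adjusted p = 0.48), and the quinone reductase *NQR* (AT3G27890) was higher at 0.44 (adjusted p = 0.54).

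The root markers matched by name had positive ratios and the leaf markers negative ones. From 19 listed symbols 10 root markers were matched, 7 of them through the study's list, and all had positive ratios (median 0.70). *XTH12* and *XTH14* passed the unadjusted p as higher, as did 5.99% of all probe sets. Both were named through the study's list, where 30.8% passed as higher. *PYK10*, *EXPA18* and *EXPA7*, named by the array annotation, had ratios of 0.11, 0.60 and 0.79 and overlapped between the genotypes. The summed signal of the 10 root markers was 22190 to 25549 in *gis5* and 17474 to 24041 in WT. These ranges overlap, and *PYK10* dominates them. The 3 leaf markers matched by name from 15 listed symbols (*RCA*, *LHCB4.1* and *GLK1*) were all negative and apart (median −0.39). All 3 had signals above the median, where 9.35% of probe sets were apart and lower (6.79% of all). *GLK1* was named through the study's list, where 18.4% were apart and lower. The leaf markers summed to 59391 to 62681 in *gis5* and 69835 to 79364 in WT. From 7 symbols of flower markers and 14 of seed markers 5 genes each were matched by name, all through the study's list and all positive. Their summed signals were 1100 to 1562 in *gis5* and 176 to 239 in WT for flower markers, and 616 to 1629 in *gis5* and 470 to 519 in WT for seed markers.

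The array in which the median of the GST genes was highest was also the one in which that of the root markers was. *gis5* replicate 3 had the highest signal of the 6 arrays for 9 of all 22 GST genes and for 8 of the 10 root markers. These 8 include every root marker named through the study's list, so they are not independent of the difference on these arrays. The 9 GST genes include *GSTU8*, *GSTU9*, *GSTU10*, *GSTU14* and *GSTU24*, named through that list, so the same holds for them. Among root markers named by the array annotation, *EXPA18* was highest in *gis5* replicate 3, *PYK10* in *gis5* replicate 1 and *EXPA7* in *gis5* replicate 2. WT replicate 3 had the lowest for 11 of the 22 GST genes and 4 of the root markers, and WT replicate 2 had it for 5 of the GST genes and 4 of the root markers. The share of all probe sets that were highest or lowest on each array is not given here. As deviations from each gene's mean over the arrays on the log2 scale, the 22 GST genes had medians of 0.22, 0.11 and 0.47 in *gis5*, against −0.07, −0.17 and −0.37 in WT. Medians of the root markers were 0.13, 0.26 and 0.67 in *gis5*, against 0.04, −0.51 and −0.53 in WT, and those of the UGT genes −0.07, 0.03 and 0.05 in *gis5* and −0.11, 0.02 and 0.11 in WT. For the 14 GST genes named by the array annotation it was 0.10, 0.11 and 0.22 in *gis5*, against −0.01, −0.04 and −0.37 in WT. The actin 3′/5′ ratio was 4.54, 4.99 and 4.39 in *gis5*, against 3.30, 5.29 and 6.42 in WT, so WT replicate 3 had the highest. The parts of root RNA and of RNA integrity in the GST difference were not tested.

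**Figure D5:**
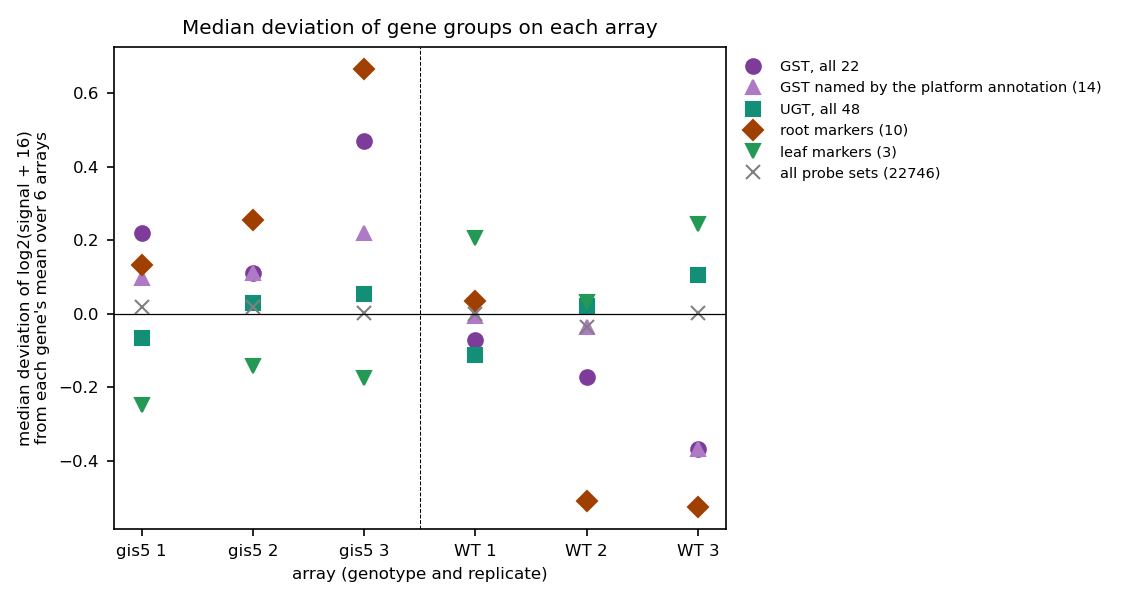
Median deviation of log2(signal + 16) from each gene's mean over the 6 arrays, by array, for GST genes (all, and those named by the array annotation), UGT genes, root markers, leaf markers and all probe sets, with *gis5* arrays on the left. GST genes and root markers both have their highest median in *gis5* replicate 3 (0.47 and 0.67), and UGT medians stay between −0.11 and 0.11. Of the 10 root markers 7 were named through the study's list, as was 1 of the 3 leaf markers.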

How the data were processed

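RNA of 3 *gis5* and 3 WT seedling samples was hybridised to 1 Affymetrix ATH1 array each. The authors deposited 1 intensity value for every probe set, on a linear scale, made with MAS5 (version not given in the sources used here). MAS5 scales each array, so total RNA per seedling is not seen. Further steps were: log2(signal + 16) with no further scaling, and a limma fit (limma 3.58.1, R 4.3.3; lmFit, then eBayes) over 22746 probe sets, with Benjamini-Hochberg adjustment over all. A log2 ratio is the *gis5* mean minus the WT mean on that scale, which makes changes of dim probe sets look smaller. Replicates were labelled biological, and their number limits the precision. The 64 control probe sets were left out. The 503 probe sets matching several genes stayed in the fit and could not be members. In data simulated for *gis5* against WT over 22746 probe sets, the fit found 41.8% of the 67 given a log2 ratio of 1. At a log2 ratio of 2 it found 94.0% of another 67. Among its calls 7 were false. These shares do not give the recovery among probe sets below the median signal, where 37 of the 70 members lie. They can therefore not be read as the sensitivity for those members.

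The members, the lists of related genes and markers, and the roles were chosen with earlier results of these data known. Genes were named in the text where they passed a threshold, were among the 5 of a family with the smallest p and no overlap or the 3 with the highest mean signal, had the smallest ratio above the median signal, neighboured such a gene, or had a known role. Others, such as *GSTU28*, *GSTU14*, *GSTU22*, *GSTU4*, *GSTF13*, *UGT71C1*, *UGT71C3* and *UGT80B1*, were named after their values were seen. Alternatives covered scaling, pseudocount, signal filter, variance model, naming and leaving out each array. The study's gene list also holds its own values, which were not used. No nucleotide or protein sequences were analysed here.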

Additional observations from a re-analysis of the deposited data

How the results depend on the processing

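The median of all GST genes was positive under every alternative run. For the 14 named by the array annotation it was −0.00 over the 9 above the median signal and 0.21 with a pseudocount of 64. The UGT median, close to 0, lay on either side of it, and so did the ratios of *GSTU20*, *GSTU27*, *UGT73D1*, *UGT74B1*, *UGT74F1*, *UGT78D2* and *UGT84A4*, none of which passed an adjusted p of 0.05 in any fit. With only probe sets above the median signal, which leaves 33 members, 6 GST genes and 1 UGT gene were higher, 1 member passed the thresholds of the study's methods (4 with all probe sets) and 1 member passed an adjusted p of 0.05. With trended and robust variance 2 members passed it, when 0.492% of all probe sets passed as higher and 0.145% as lower. The higher UGT genes numbered 3 with quantile normalization and 3 with centred arrays, and the lower ones 5 with quantile normalization. With a pseudocount of 64, 0 members passed the thresholds of the methods, and with a pseudocount of 1 the GST median was 0.75. With members named by the array annotation alone, 5 GST genes were higher and 1 member passed those thresholds. The cause of these shifts was not tested beyond the fewer genes entered. The share of all probe sets past the unadjusted p under each alternative fit is not given here. This also holds for the fits with 1 array left out and with a replicate block.

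With 1 array left out, higher GST genes numbered 4 to 10, higher UGT genes 2 to 5, lower UGT genes 1 to 4 and members past the thresholds of the methods 2 (without *gis5* replicate 3) to 7 (without WT replicate 1 or without WT replicate 2). With the replicate number as a block, 9 GST genes were higher and 0 lower, and 4 UGT genes were higher and 3 lower. Arrays of the same number had deviations that correlated at −0.06, −0.00028 and −0.04, so the numbers did not pair them. Dim members had larger errors, with a median SE of 0.32 below the median signal and 0.19 above it.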

Other observations

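Another 5 genes carry a UGT or GST name only as a RefSeq synonym and were added after the data were seen. AT5G02780, whose synonym is *GSTL1*, of the lambda class, had signals of 269.5, 398 and 372 in *gis5* and 229, 235 and 131 in WT. The groups did not overlap, and the log2 ratio was 0.78 (limma adjusted p = 0.47). It was named through the study's gene list, so its difference is not independent of its naming. The other 4 overlapped between the genotypes. *UF3GT* (*UGT79B1*), which acts on anthocyanins, and *SGT* (*UGT80A2*), which acts on sterols, each had a log2 ratio of −0.22. *GT72B1* (*UGT72B1*), known for its action on chlorinated phenols and anilines, had −0.01, and AT5G54010 had 0.05.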
